A study of Homo sapiens with 12 samples.

Results

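The genes described here are the enzymes of glycolysis and the response genes of hypoxia, 36 in all. They comprise glucose transporters, the enzymes from hexokinase to lactate dehydrogenase, the kinases that set pyruvate use, targets of the hypoxia-inducible factors, and the factors HIF1A and EPAS1. Members were chosen by name, with earlier results of these data known. Each was represented by the probe set (the group of array probes that reads 1 transcript) with the highest mean among those annotated with that gene alone. In this way 35 of the 36 were measured, among 19775 genes in all, and CA9 was not analysed here. RNA came from the human embryonic stem cell line H9 at passages 28 to 35. Every group carried a Tet-on construct, in which doxycycline (Dox) turns on GCNF, the orphan nuclear receptor that NR6A1 encodes. The 4 groups held 3 arrays each. They were differentiating cells (day 6) labelled as given 1 µg/ml Dox for 6 days, differentiating cells labelled as given 1 µM retinoic acid (RA) for 6 days, undifferentiated cells (d0) given 1 µg/ml Dox for 4 days, and undifferentiated cells without treatment. The medium was mTeSR for undifferentiated cells and 15% serum in DMEM/F12 for the others, so day and medium cannot be told apart. No group without the construct and no group given neither agent at day 6 was analysed here. The labels do not say whether the line is 1 clone.

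Glycolysis splits glucose into pyruvate, which lactate dehydrogenase reduces to lactate or the pyruvate dehydrogenase complex passes to the mitochondria, and pyruvate dehydrogenase kinases (PDKs) switch that complex off. Human pluripotent stem cells are known for a high rate of glycolysis even with oxygen present. When oxygen is short, HIF-1α and HIF-2α (EPAS1) escape degradation, pair with ARNT and bind hypoxia response elements in genes of glucose uptake, glycolysis, blood vessel growth and oxygen sensing. HIF-1α is set mainly by the stability of its protein, which arrays do not measure.

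The median signal per array was 64.2 to 78.0 on the linear scale of the deposited values, and log2 values of replicates had correlations of 0.980 to 0.982. The number of arrays limits the precision. Replicates are labelled biological, but separate cultures are not described, so the spread behind each p-value is that of these arrays and may be partly technical. All 7 probe sets of NR6A1 were higher with Dox at d0. The most induced one averaged 615 ± 40.8 with Dox and 26.8 ± 17.6 without (SD, n = 3 each). At day 6 that probe set went against the labels, at 29.2 ± 13.7 on the arrays labelled Dox and 336 ± 70.9 on those labelled RA, and 3 others were also lower there while 3 were higher. Among those lower was a dim probe set, averaging 7.94 on Dox-labelled and 13.2 on RA-labelled arrays, which says little of direction. CYP26A1, an enzyme that RA induces, averaged 29594 ± 1005 on the Dox-labelled and 271 ± 37.0 on the RA-labelled arrays. The day 6 groups are therefore named by label only, and every direction between them rests on those labels. The pluripotency factor NANOG averaged 36.7 ± 3.28 on Dox-labelled and 639.8 ± 46.0 on RA-labelled day 6 arrays, 5468 ± 111 at d0 with Dox and 11672 ± 556 at d0. Defining stem cell markers were therefore bright at d0 and dimmer at day 6, as the cell labels say.

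Most differences among these genes lay between day 6 and d0. Levels below are probe set signals on the linear scale, and fold changes are of signal + 16, as log2 values with their SE where they are signed. On RA-labelled day 6 arrays NDRG1, EPAS1, PFKP, SLC2A1, KDM3A, P4HA1 and VEGFA stood between 2.85 and 10.1 times their d0 levels, while PDK1 and HK2 were lower by 3.43 and 2.51 times. In that comparison 18 members rose, 8 fell and 9 were not called, that is, did not reach an adjusted p of 0.05 in limma. Rises made up 51.4% of the members and falls 22.9%, where 25.3% of all genes were called higher and 25.2% lower, 50.5% in all. Here and below, all genes are not matched to the members in level. By mean level the members lay between percentiles 40.2 (PDK4) and 99.8 (GAPDH) of all genes. Over all tests, 82 of the 87 called results of members came from genes at or above the median level. The part of level in these shares was not tested. The median log2 fold change was 0.37 over the members and -0.01 over all genes.

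On Dox-labelled day 6 arrays, set against d0 with Dox, 18 members again rose, 5 fell and 12 were not called, where 22.2% of all genes were called higher and 23.9% lower. NDRG1, PFKFB3, EPAS1, PFKP and VEGFA led the rises, at 3.28 to 5.22 times. HK2 fell most, by 2.12 times. The median was 0.20 over the members and -0.03 over all genes. Median centring of each array moved the median of all genes to 0.11, and the falls then numbered 2. The falls numbered 2 without replicate 2 of Dox-labelled day 6, and 3 without its replicate 3 or without replicate 1 or 3 of d0 with Dox. These 2 comparisons share no array. Of the rises in each, 14 were in both, 77.8% of either list. Over all genes the shared rises were 75.4% of the Dox-labelled list and 66.1% of the RA-labelled list. The falls in both were 3, ALDOC, HK2 and PDK3, 60% of the Dox-labelled and 37.5% of the RA-labelled list, where all genes gave 72.9% and 69.1%. HK1 and SLC2A3 (5.71% of the members) were called in opposite directions, as were 2.2% of all genes. With each day 6 group set against the other d0 group, a choice made after seeing the data, 20 members rose and 7 fell on Dox-labelled arrays, and 18 rose and 8 fell on RA-labelled ones. The shares of all genes called in these crossed comparisons are not given here, so the counts are not read against a background.

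Between the day 6 groups the members divided evenly. On Dox-labelled arrays 9 members were higher than on RA-labelled ones, 9 were lower and 17 were not called, where 13.7% of all genes were called higher and 12.2% lower. SLC2A3, PDK1, EGLN3 and VEGFA were the largest rises and SLC2A1, NDRG1, EPAS1 and PKM the largest falls. The median was -0.06, against 0.00 over all genes. Without replicate 1 or 3 of Dox-labelled day 6 the rises numbered 5.

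Dox at d0 moved few of these genes. PFKFB4, ADM and VEGFA rose, PDK1, HK1 and BNIP3 fell, and 29 were not called. Each direction took 8.57% of the members, close to the 7.75% of all genes called higher and the 5.16% called lower. Without replicate 1 of d0 the rises numbered 1 and without its replicate 3 they numbered 6. Fitted on the 6 d0 arrays alone, 0 members were called higher. RNA quality also differed there: the 3′ control probe set of ACTB over its 5′ one was 3.86 ± 0.0111 with Dox and 3.24 ± 0.139 without. Its part in these results was not tested.

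**Figure D1:**
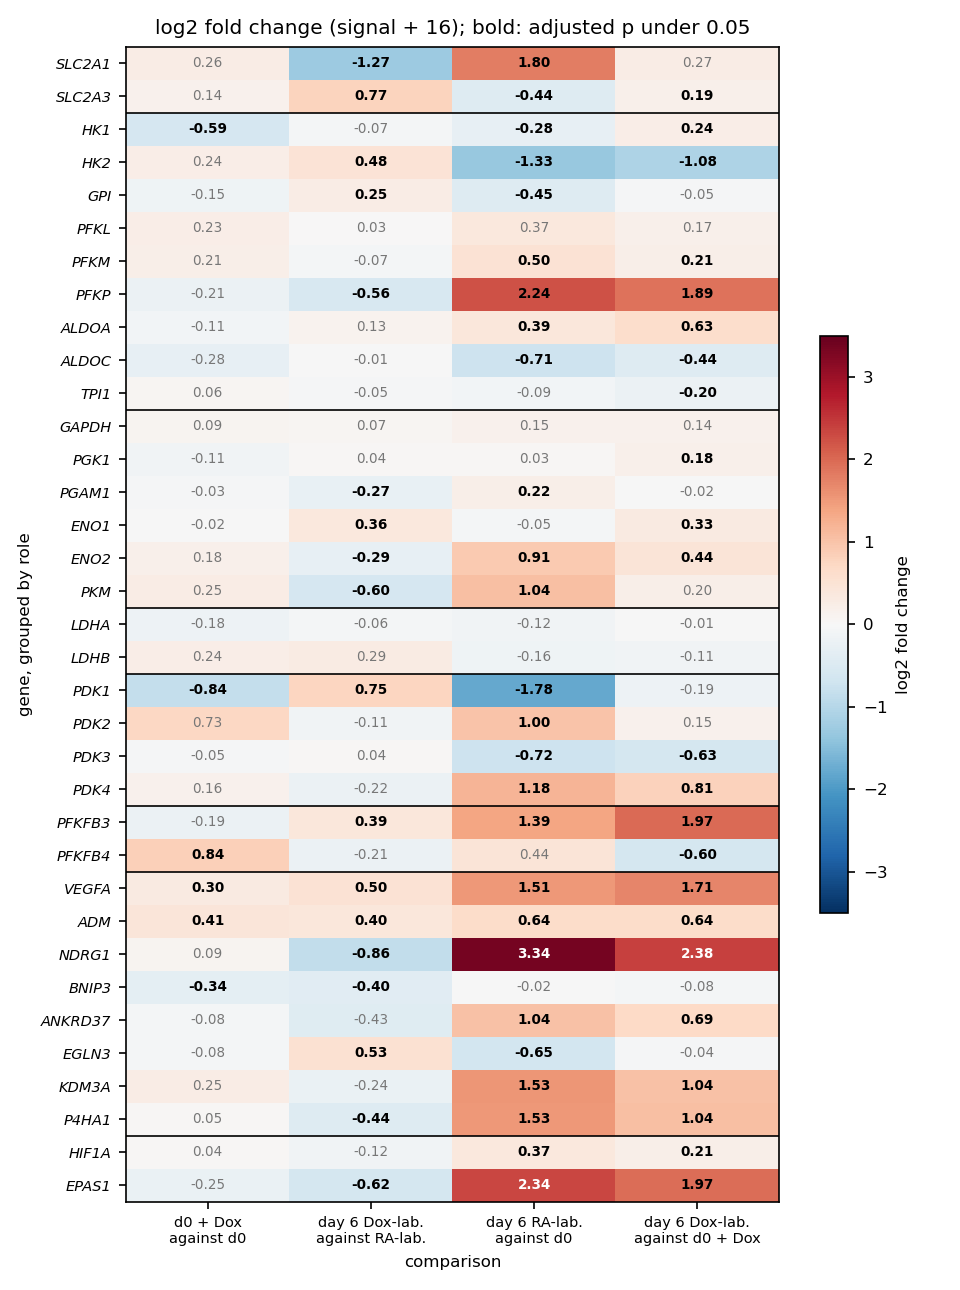
Log2 fold change of signal + 16 for the 35 measured members (rows, grouped by role with lines between roles) in the 4 comparisons (columns), red for higher and blue for lower. Bold values passed an adjusted p of 0.05, and the column of d0 with Dox against d0 holds 6 of them while the RA-labelled day 6 column holds 26.

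The promoters of the members with the largest rises and falls are shown because hypoxia response elements are known in this family. NDRG1 and SLC2A3, which led 3 of the comparisons, are named only. RefSeq windows of build GRCh38.p14, from 250 bases before to 50 after each annotated start, matched 32 of the 35 members, with 58 windows in all because 12 members have several starts. Both forms of the hypoxia response element core, ACGTG and GCGTG, were searched on both strands. Capitals mark every match, and CACGTG holds a match on each strand that overlaps the other.
PFKFB3 start 1 (chr10:6144671-6144970, plus strand): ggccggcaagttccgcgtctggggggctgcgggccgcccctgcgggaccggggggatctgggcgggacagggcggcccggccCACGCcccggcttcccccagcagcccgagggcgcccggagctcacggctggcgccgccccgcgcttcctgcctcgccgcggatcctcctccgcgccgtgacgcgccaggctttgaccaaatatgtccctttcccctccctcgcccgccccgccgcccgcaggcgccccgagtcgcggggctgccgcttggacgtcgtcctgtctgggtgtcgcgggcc
PFKFB3 start 2 (chr10:6202682-6202981, plus strand): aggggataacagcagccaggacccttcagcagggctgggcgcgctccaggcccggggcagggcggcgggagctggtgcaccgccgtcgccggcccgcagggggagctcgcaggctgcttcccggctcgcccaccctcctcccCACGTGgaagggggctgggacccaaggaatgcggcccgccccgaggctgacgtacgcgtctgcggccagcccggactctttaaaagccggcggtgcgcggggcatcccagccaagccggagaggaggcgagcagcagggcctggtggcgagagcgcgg
EPAS1 (chr2:46297157-46297456, plus strand): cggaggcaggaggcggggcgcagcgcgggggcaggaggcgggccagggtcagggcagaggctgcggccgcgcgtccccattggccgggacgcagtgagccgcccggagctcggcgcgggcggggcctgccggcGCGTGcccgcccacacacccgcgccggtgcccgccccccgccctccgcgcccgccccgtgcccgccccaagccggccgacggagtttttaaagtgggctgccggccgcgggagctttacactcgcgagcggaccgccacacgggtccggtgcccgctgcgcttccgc
SLC2A1 (chr1:42958819-42959118, minus strand): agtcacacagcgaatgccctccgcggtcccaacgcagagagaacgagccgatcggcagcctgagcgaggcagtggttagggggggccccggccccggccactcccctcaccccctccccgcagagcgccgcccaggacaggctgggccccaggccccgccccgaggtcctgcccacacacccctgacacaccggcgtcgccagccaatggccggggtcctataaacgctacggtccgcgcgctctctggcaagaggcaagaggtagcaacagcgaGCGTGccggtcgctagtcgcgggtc
PFKFB4 (chr3:48556754-48557053, minus strand): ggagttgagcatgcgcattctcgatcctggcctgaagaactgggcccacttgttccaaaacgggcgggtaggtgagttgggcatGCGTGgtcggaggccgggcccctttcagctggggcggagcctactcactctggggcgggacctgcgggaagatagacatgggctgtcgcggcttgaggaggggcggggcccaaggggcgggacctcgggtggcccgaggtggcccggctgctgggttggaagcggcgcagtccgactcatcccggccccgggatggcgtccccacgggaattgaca
HK2 start 1 (chr2:74833877-74834176, plus strand): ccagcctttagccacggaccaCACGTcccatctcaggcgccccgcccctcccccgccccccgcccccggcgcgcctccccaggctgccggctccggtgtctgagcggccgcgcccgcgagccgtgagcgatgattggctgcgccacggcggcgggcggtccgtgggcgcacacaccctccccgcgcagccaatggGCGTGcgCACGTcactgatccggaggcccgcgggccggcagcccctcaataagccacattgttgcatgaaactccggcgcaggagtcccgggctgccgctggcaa
HK2 start 2 (chr2:74834920-74835219, plus strand): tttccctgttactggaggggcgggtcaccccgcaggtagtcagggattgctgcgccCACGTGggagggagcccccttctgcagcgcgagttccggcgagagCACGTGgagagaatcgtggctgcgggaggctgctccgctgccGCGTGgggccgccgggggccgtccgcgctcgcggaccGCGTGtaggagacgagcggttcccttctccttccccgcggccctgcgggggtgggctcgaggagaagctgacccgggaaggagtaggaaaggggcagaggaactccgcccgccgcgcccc
PDK1 start 1 (chr2:172555123-172555422, plus strand): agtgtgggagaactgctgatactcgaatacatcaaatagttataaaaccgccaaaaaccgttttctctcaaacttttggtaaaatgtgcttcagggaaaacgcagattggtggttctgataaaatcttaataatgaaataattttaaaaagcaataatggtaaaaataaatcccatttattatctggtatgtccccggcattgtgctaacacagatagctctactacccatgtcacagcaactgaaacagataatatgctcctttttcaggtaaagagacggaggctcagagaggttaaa
PDK1 start 2 (chr2:172555840-172556139, plus strand): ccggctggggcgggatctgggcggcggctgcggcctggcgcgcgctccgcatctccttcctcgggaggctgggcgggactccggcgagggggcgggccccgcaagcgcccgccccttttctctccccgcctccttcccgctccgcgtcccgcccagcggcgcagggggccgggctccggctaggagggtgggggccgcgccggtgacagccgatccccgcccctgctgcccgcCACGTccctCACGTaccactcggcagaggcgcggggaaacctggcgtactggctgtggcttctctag

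Windows with the core were found among genes that rose and genes that fell at day 6. HK2, which fell, had 3 matches at its first start and 6 at its second, among them 2 copies of CACGTG. PDK1, which fell on RA-labelled arrays, had 2 matches at its second start, at -17 and -8 bases, and 0 at its first. PFKFB3, which rose, had 1 and 2. EPAS1, PFKFB4 and SLC2A1 had 1 each, that of SLC2A1 lying 25 bases after the start. Over the members 38 of 58 windows (65.5%) held either form, against 48.4% of 35116 windows of all genes. The member windows were also richer in G and C, with a median of 68.8% against 58.7%. A match is a description of letters, not a bound site, and a window without one says nothing of the factor.

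**Figure D2:**
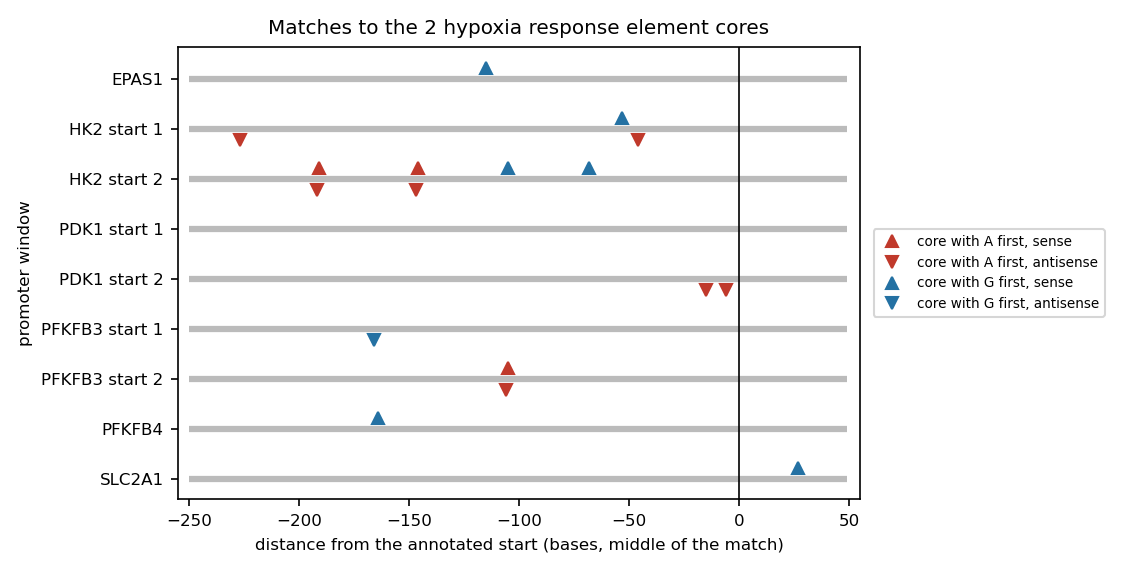
Positions of the 2 core forms in the 9 printed promoter windows (rows), in bases from the annotated start at 0, with upward triangles for the sense strand and downward ones for the antisense strand. HK2 carries 3 and 6 matches, while the first start of PDK1 carries 0.

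The 2 glucose transporters ran in opposite directions. SLC2A1 (GLUT1), the transporter of most dividing cells, had 3305, 3557 and 4106 on RA-labelled day 6 arrays, against 1109.6, 906 and 1098 at d0. It rose there (log2 fold change 1.80 ± 0.12, adjusted p = 6.81e-07). Dox-labelled arrays gave 1510.5, 1408 and 1581, below every RA-labelled array (log2 fold change -1.27 ± 0.12, adjusted p = 4.83e-05), and d0 with Dox 1093, 1237 and 1413, a difference from Dox-labelled day 6 that was not called (adjusted p = 0.106). The higher level of SLC2A1 was thus seen in the RA-labelled group, and its second probe set went the same way in both called comparisons.

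SLC2A3 (GLUT3), a transporter of high affinity known from neurons and stem cells, was highest where SLC2A1 was not. It had 18600.0, 19150.2 and 17660.0 on Dox-labelled day 6 arrays, against 11179.5, 10781 and 10503 on RA-labelled ones, without overlap (log2 fold change 0.77 ± 0.06, adjusted p = 1.67e-05). Its RA-labelled arrays also lay below the d0 arrays, at 14158, 14580.0 and 15339.5 (log2 fold change -0.44 ± 0.06, adjusted p = 0.000187). Levels at d0 with Dox were 16132, 15787 and 16687. The rise on Dox-labelled day 6 arrays over these was small (0.19) and was lost without 4 of the 12 arrays in turn (adjusted p up to 0.113) and with the replicate block (adjusted p = 0.0604). SLC2A14 is nearly identical to SLC2A3 and shares some of the array's probe sets, and signal from it cannot be told apart here.

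Hexokinases trap glucose in the cell by phosphorylation. HK2, the inducible form, fell at day 6 in both comparisons. It had 875, 802 and 864 on Dox-labelled day 6 arrays, against 1526, 2014 and 1934 at d0 with Dox (log2 fold change -1.08 ± 0.14, adjusted p = 9.62e-05). RA-labelled arrays gave 583, 563 and 667, against 1299, 1810.2 and 1536 at d0 (log2 fold change -1.33 ± 0.14, adjusted p = 1.68e-05). In neither comparison did the groups overlap. Both other HK2 probe sets were also lower on RA-labelled arrays than at d0, both called, and the mean over all 3 on Dox-labelled arrays against d0 with Dox was -0.71. The excess of Dox-labelled over RA-labelled arrays (0.48, adjusted p = 0.029) was lost without 5 of the 12 arrays in turn (adjusted p up to 0.0927), though both other HK2 probe sets were called higher there.

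HK1, the constitutive hexokinase, was the upper-glycolysis gene that fell with Dox at d0. It had 2241, 2489 and 2357 with Dox, against 3328, 3558 and 3817 without (log2 fold change -0.59 ± 0.09, adjusted p = 0.00232), and the groups did not overlap. At day 6 it averaged 2802 ± 189 on Dox-labelled and 2943 ± 250.1 on RA-labelled arrays, with small calls in opposite directions against their d0 groups (0.24 and -0.28), lost without 8 and 4 of the 12 arrays in turn (adjusted p up to 0.148 and 0.0973).

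Phosphofructokinase, the committed step of glycolysis, has muscle, liver and platelet subunits (PFKM, PFKL and PFKP). PFKP was the glycolytic enzyme that rose most at day 6. It had 14880.5, 14044 and 14708 on RA-labelled arrays, against 3165, 2739 and 3329 at d0 (log2 fold change 2.24 ± 0.08, adjusted p = 1.13e-08), and 9201, 10273 and 10064 on Dox-labelled arrays, against 2714, 2665 and 2546 at d0 with Dox (log2 fold change 1.89 ± 0.08, adjusted p = 5.05e-08). Every day 6 array lay above every d0 array. Dox-labelled arrays were lower than RA-labelled ones (-0.56, adjusted p = 0.000802). A second, dim PFKP probe set (mean signal 30.8) made the means over both 1.49 and 0.94 against the d0 groups, with the call between the day 6 groups lost (adjusted p = 0.0554).

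PFKM rose to 3315 ± 138 on RA-labelled arrays, against 2346 ± 66.7 at d0 (0.50). On Dox-labelled arrays it averaged 3155 ± 131, against 2719.7 ± 195 at d0 with Dox (0.21, lost without 4 of the 12 arrays in turn with an adjusted p up to 0.132, and with the replicate block). PFKL, at 329 to 568 over all arrays, was called in no comparison.

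The aldolases, which split fructose-1,6-bisphosphate, parted by isoform. ALDOA, the form of muscle and most cells, had 12546, 12312 and 12967 on Dox-labelled day 6 arrays, against 8019, 8205 and 8276 at d0 with Dox (log2 fold change 0.63 ± 0.06, adjusted p = 1.61e-05). ALDOA rose by 0.39 on RA-labelled arrays, and the difference between the arms was not called (adjusted p = 0.0851). On both kinds of day 6 array its other 2 probe sets rose too. ALDOC, the form known from brain, was dimmer at day 6, with 315, 311 and 359 on RA-labelled arrays and 498, 574 and 576 at d0 (log2 fold change -0.71 ± 0.15, adjusted p = 0.00273). Its fall on Dox-labelled arrays (-0.44) was lost without 5 of the 12 arrays in turn (adjusted p up to 0.138). The isomerases had smaller changes. GPI averaged 1487 ± 61.9 on RA-labelled arrays and 2046 ± 186 at d0 (-0.45, adjusted p = 0.000472). It was higher on Dox-labelled than on RA-labelled arrays (0.25), a call lost without 6 of the 12 arrays in turn (adjusted p up to 0.105) and with the replicate block (adjusted p = 0.0584). TPI1 lay between 8232 and 10029.5 on all arrays and fell slightly on Dox-labelled day 6 arrays against d0 with Dox (-0.20). That call was lost without replicate 3 of d0 with Dox (adjusted p = 0.0683) or replicate 1 or 2 of Dox-labelled day 6 (adjusted p = 0.0531 and 0.0517), and was -0.06 (adjusted p = 0.551) after median centring.

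**Figure D3:**
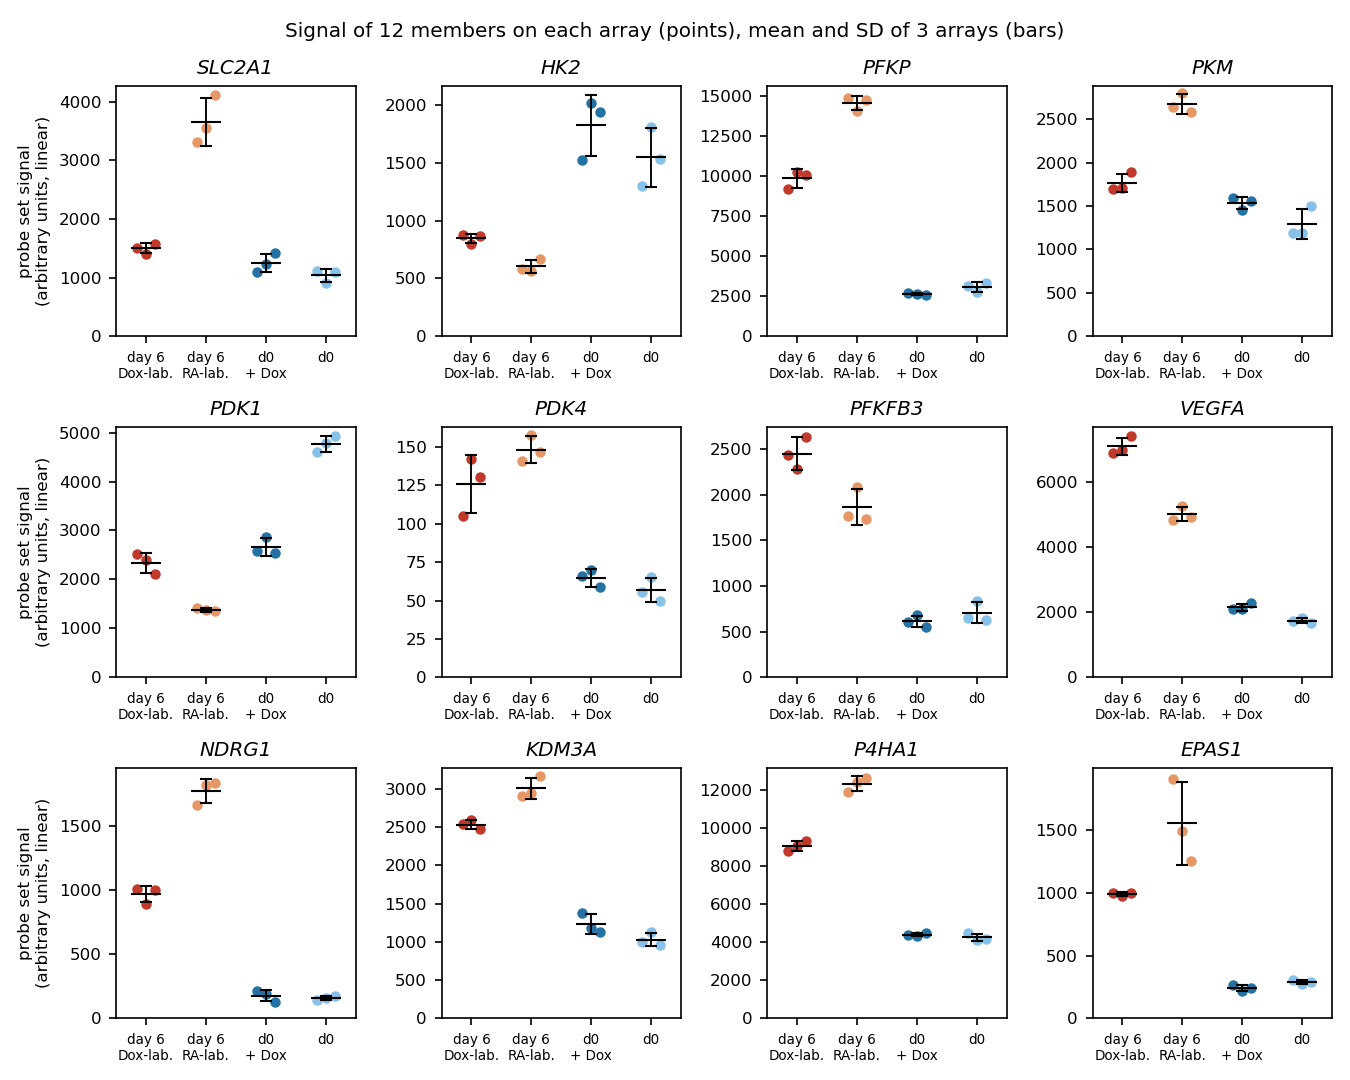
Probe set signal (linear, arbitrary units) of the 12 members with the largest fold changes, with 3 arrays (points), mean and SD (bars) for each of the 4 groups. All 6 day 6 arrays lie above all 6 d0 arrays for PFKP, PFKFB3, VEGFA, NDRG1, KDM3A, P4HA1, EPAS1, PKM and PDK4. They lie below them for HK2 and, narrowly, PDK1 (at most 2512 at day 6, at least 2532 at d0 with Dox). SLC2A1 is high on the 3 RA-labelled arrays, at 3305 or more. The share of all genes separated in this way is not given here.

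Among the payoff enzymes of glycolysis GAPDH, PGK1 and PGAM1 had small or no called changes, while ENO2 and PKM changed most. GAPDH averaged 26823 ± 617 on Dox-labelled and 25472 ± 742 on RA-labelled day 6 arrays, 24332 ± 518 at d0 with Dox and 22951 ± 1750.0 at d0, and was called in no comparison. Its representative is the 3′ control probe set. The 5′ and middle control probe sets of the same gene were called higher at day 6 in both comparisons with d0, and the 3′ to 5′ ratio was 1.46 ± 0.0230 on Dox-labelled and 1.35 ± 0.0817 on RA-labelled arrays, 1.62 ± 0.0554 at d0 with Dox and 1.53 ± 0.0577 at d0. The part of that ratio in the GAPDH values was not tested.

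PGK1, which makes the first ATP of the pathway, averaged 13623 ± 126 on Dox-labelled day 6 arrays and 12032 ± 376 at d0 with Dox (0.18, lost without 5 of the 12 arrays in turn, adjusted p up to 0.0884). PGAM1 had small calls of -0.27 between the day 6 groups and 0.22 for RA-labelled against d0, lost without 5 and 11 of the arrays in turn (adjusted p up to 0.0794 and 0.126). Processed copies of GAPDH, PGK1, PGAM1, ENO1, TPI1, ALDOA and the lactate dehydrogenases are known in the genome, and signal from them cannot be told apart here.

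Enolase has a ubiquitous form, ENO1, and a form of neurons, ENO2. ENO2 had 1936, 2030.3 and 2183 on RA-labelled day 6 arrays, against 1056, 1120.0 and 1064 at d0 (log2 fold change 0.91 ± 0.09, adjusted p = 1.27e-05). Dox-labelled arrays gave 1635, 1631 and 1745, against 1077, 1242 and 1375 at d0 with Dox (0.44, adjusted p = 0.00263). ENO1 instead was higher on Dox-labelled arrays, at 14882 ± 472, than on RA-labelled ones, at 11598 ± 256 (log2 fold change 0.36 ± 0.07, adjusted p = 0.00438), but the mean over its 4 probe sets was 0.01 (adjusted p = 0.972). That rise also stood against d0 with Dox (0.33), where this mean turned to -0.25 and 1 dim probe set, averaging 25.0, was called lower. The lower ENO2 on Dox-labelled than on RA-labelled arrays (-0.29) was lost without 10 of the 12 arrays in turn (adjusted p up to 0.133).

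PKM, pyruvate kinase of most tissues, followed the pattern of SLC2A1. It had 2644, 2799 and 2581 on RA-labelled day 6 arrays, against 1193, 1195 and 1499 at d0 (log2 fold change 1.04 ± 0.10, adjusted p = 6.78e-06). Dox-labelled arrays had 1700.4, 1708 and 1890.2, below every RA-labelled array (log2 fold change -0.60 ± 0.10, adjusted p = 0.00139). A second PKM probe set was called the same way in both comparisons, and was lower on Dox-labelled day 6 arrays than at d0 with Dox, where the brighter one was not called (adjusted p = 0.124). Which splice forms of PKM these probe sets read was not analysed here.

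Lactate dehydrogenase makes lactate from pyruvate. LDHA, a textbook target of HIF-1, averaged 11787 ± 685 on Dox-labelled and 12299 ± 158 on RA-labelled day 6 arrays, 11866 ± 512 at d0 with Dox and 13431 ± 1132 at d0. LDHB, the form of heart, averaged 25807 ± 969 on Dox-labelled and 21092 ± 1425 on RA-labelled arrays, 27873 ± 594 at d0 with Dox and 23694 ± 3393 at d0. Neither was called in any of the 4 comparisons, which does not show equal levels. The arrays of LDHA overlapped in both comparisons that involve Dox-labelled day 6, and those of LDHB between RA-labelled day 6 and d0. A second LDHB probe set was called higher on Dox-labelled than on RA-labelled arrays and lower on RA-labelled arrays than at d0.

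The 4 PDKs each behaved differently. PDK1, a target of HIF-1, fell with Dox at d0 and on RA-labelled day 6 arrays. It had 2573, 2871 and 2532 at d0 with Dox, against 4606, 4777 and 4931 at d0 (log2 fold change -0.84 ± 0.08, adjusted p = 0.000148). RA-labelled day 6 arrays had 1418, 1368 and 1349, 3.43 times below d0 (log2 fold change -1.78 ± 0.08, adjusted p = 4.42e-08). Dox-labelled ones had 2512, 2394 and 2107, above every RA-labelled array (log2 fold change 0.75 ± 0.08, adjusted p = 0.000106) and not called against d0 with Dox (adjusted p = 0.0932). The d0 group was thus the highest of the 4, with no overlap with any other. A dimmer PDK1 probe set fell with Dox at d0 and on RA-labelled arrays too. The mean over all 3 probe sets lost the call between the day 6 groups (adjusted p = 0.12).

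PDK3 fell at day 6 whichever the label, with 1358, 1340.2 and 1399.6 on Dox-labelled arrays, against 2185, 2099.7 and 2066 at d0 with Dox (log2 fold change -0.63 ± 0.07, adjusted p = 2.48e-05). RA-labelled arrays had 1369, 1311 and 1299, against 2048, 2203 and 2335 at d0 (log2 fold change -0.72 ± 0.07, adjusted p = 6.51e-06), and its 4 other probe sets were also called lower there. On Dox-labelled arrays against d0 with Dox all 4 were lower, but only 1 was called. PDK4, known as the PDK of fasting and fat use, ran the other way at a low signal. It had 141, 158 and 147 on RA-labelled arrays, against 55.2, 65.0 and 49.5 at d0 (log2 fold change 1.18 ± 0.12, adjusted p = 9.84e-06), and 105, 142 and 131 on Dox-labelled arrays, against 66.0, 69.6 and 58.5 at d0 with Dox (log2 fold change 0.81 ± 0.12, adjusted p = 0.000209). As means over its probe sets these were 0.48 and 0.22, the second no longer called (adjusted p = 0.311). PDK2 rose on RA-labelled arrays, to 176, 206 and 273, against 79.4, 72.4 and 168 at d0 (1.00, adjusted p = 0.0139). This call was lost without replicate 1 or 2 of d0 (adjusted p = 0.054 and 0.0564) or replicate 3 of RA-labelled day 6 (adjusted p = 0.0553).

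PFKFB3 and PFKFB4 make and degrade fructose-2,6-bisphosphate, the activator of phosphofructokinase, and both are known to be induced by HIF-1. PFKFB3 had 2427, 2278 and 2634 on Dox-labelled day 6 arrays, against 601, 680.1 and 555 at d0 with Dox (log2 fold change 1.97 ± 0.13, adjusted p = 7.26e-07). PFKFB3 had 1768, 2087 and 1731 on RA-labelled arrays, against 652, 837 and 625 at d0 (log2 fold change 1.39 ± 0.13, adjusted p = 6.65e-06). All 6 day 6 arrays lay above all 6 d0 arrays. The excess of Dox-labelled over RA-labelled arrays (0.39, adjusted p = 0.0487) was lost without 9 of the 12 arrays in turn (adjusted p up to 0.141).

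PFKFB4 did not share that rise. It rose with Dox at d0, to 753, 523 and 492, against 264, 284 and 424 at d0 (log2 fold change 0.84 ± 0.20, adjusted p = 0.0212), and fell on Dox-labelled day 6 arrays, to 406, 339 and 385 (-0.60, adjusted p = 0.0298). Replicates varied widely. The rise was lost without replicate 1 or 2 of d0 (adjusted p = 0.0777 and 0.0717) or replicate 1 of d0 with Dox (adjusted p = 0.0672). The fall was lost without replicate 1 of d0 with Dox (adjusted p = 0.109) or replicate 2 or 3 of Dox-labelled day 6 (adjusted p = 0.0939 and 0.0613). As means over its probe sets neither was called (adjusted p = 0.114 and 0.213).

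Among hypoxia targets outside glycolysis, 6 of the 8 measured (75%) rose at day 6 on RA-labelled arrays. The same 6 rose on Dox-labelled arrays. Of all genes 25.3% and 22.2% were called higher in these comparisons, and 66.1% and 75.4% of those rises were shared. NDRG1, a growth-limiting gene induced by hypoxia and by differentiation, changed most of all members. It had 1661, 1814 and 1830.2 on RA-labelled arrays, against 145, 159.8 and 177 at d0 (log2 fold change 3.34 ± 0.15, adjusted p = 4.42e-08). Dox-labelled arrays had 1009, 892 and 1001, against 212, 188 and 127 at d0 with Dox (log2 fold change 2.38 ± 0.15, adjusted p = 6.82e-07), and every one lay below every RA-labelled array (log2 fold change -0.86 ± 0.15, adjusted p = 0.00243).

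P4HA1 is a subunit of collagen prolyl hydroxylase and KDM3A a histone H3 lysine demethylase. At their brightest probe sets both moved by almost the same amount. P4HA1 had 11871, 12419.6 and 12637 on RA-labelled arrays, against 4475, 4095 and 4184 at d0 (log2 fold change 1.53 ± 0.06, adjusted p = 1.91e-08), and 8802, 9029 and 9325 on Dox-labelled arrays, against 4392, 4309 and 4481 at d0 with Dox (1.04). KDM3A had 2908, 2947 and 3162 on RA-labelled arrays, against 1002, 1125 and 963 at d0 (log2 fold change 1.53 ± 0.09, adjusted p = 2.37e-07), and 2534, 2592 and 2476 on Dox-labelled arrays, against 1379, 1186 and 1125 at d0 with Dox (1.04). Between the day 6 groups P4HA1 was lower on Dox-labelled arrays (-0.44, adjusted p = 0.000559), while KDM3A was not called (adjusted p = 0.0778). As means over all their probe sets the rises on RA-labelled and Dox-labelled arrays were 0.59 and 0.67 for P4HA1, with the call between the day 6 groups lost (adjusted p = 0.867), and 0.82 and 0.48 for KDM3A. The other P4HA1 probe set had the opposite sign on RA-labelled arrays against d0 and between the day 6 groups. That of KDM3A had the opposite sign on Dox-labelled arrays against d0 with Dox. These opposite changes were not called.

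The 2 secreted vessel factors of the list, VEGFA and ADM (adrenomedullin), were the members called higher in all 4 comparisons. VEGFA had 6895, 6970.0 and 7396 on Dox-labelled and 4839, 5247 and 4915 on RA-labelled day 6 arrays (log2 fold change 0.50 ± 0.07, adjusted p = 0.000438), 2089, 2096 and 2270.2 at d0 with Dox and 1734, 1816 and 1675 at d0. Its rises at day 6 were 1.71 over d0 with Dox and 1.51 over d0. With Dox at d0 the rise was 0.30 (adjusted p = 0.0169), lost without replicate 1 of d0 (0.053) or replicate 3 of d0 with Dox (0.0654), and 0.10 as the mean of its 4 probe sets. ADM averaged 5809 ± 342 on Dox-labelled and 4393 ± 274 on RA-labelled arrays, 3733 ± 161 at d0 with Dox and 2808 ± 266 at d0. Its log2 fold changes were 0.40 between the day 6 groups, 0.64 and 0.64 for Dox-labelled and RA-labelled arrays against their d0 groups, and 0.41 with Dox at d0. The last was lost without replicate 2 of d0 with Dox (adjusted p = 0.0509).

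ANKRD37, a small ankyrin repeat gene induced by HIF-1, rose at a low signal, to 332, 285 and 308 on RA-labelled arrays, against 167, 125 and 137 at d0 (log2 fold change 1.04 ± 0.18, adjusted p = 0.000789), and by 0.69 on Dox-labelled arrays over d0 with Dox. As the mean over its probe sets the rise on RA-labelled arrays was 0.68. The 2 others did not rise at day 6. BNIP3, a mitophagy receptor, averaged 2198 ± 54.2 on Dox-labelled and 2902 ± 106 on RA-labelled day 6 arrays (log2 fold change -0.40 ± 0.06, adjusted p = 0.00118), 2316 ± 35.1 at d0 with Dox and 2940.0 ± 152 at d0 (log2 fold change -0.34 ± 0.06, adjusted p = 0.00666). It was called in neither comparison of day 6 with d0, and was lower in both groups labelled Dox than in the other group of the same day. The call at d0 was lost on the 6 d0 arrays alone (adjusted p = 0.0557) and as the mean over its probe sets (adjusted p = 0.0501).

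EGLN3, a prolyl hydroxylase that marks HIF for degradation and is itself induced by hypoxia, fell on RA-labelled arrays, to 305, 353 and 247, against 478, 441 and 516 at d0 (log2 fold change -0.65 ± 0.14, adjusted p = 0.00266). Dox-labelled arrays had 485, 377 and 457, a rise over RA-labelled ones (0.53, adjusted p = 0.019) that was lost without replicate 3 of RA-labelled day 6 (adjusted p = 0.0634) or replicate 1 or 3 of Dox-labelled day 6 (adjusted p = 0.073 and 0.0586). A second EGLN3 probe set was called the same way in both comparisons.

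Transcripts of the 2 oxygen-regulated factors rose unequally. EPAS1 (HIF-2α) had 1913, 1498 and 1259 on RA-labelled day 6 arrays, against 307, 273 and 292 at d0 (log2 fold change 2.34 ± 0.14, adjusted p = 2.03e-07). Dox-labelled arrays had 1003, 977 and 1003, against 269, 221 and 240.1 at d0 with Dox (log2 fold change 1.97 ± 0.14, adjusted p = 1.07e-06). The RA-labelled arrays were spread more than those of any other group, yet all lay above the Dox-labelled ones (-0.62, adjusted p = 0.00742). As means over its probe sets the EPAS1 rises were 1.13 and 0.65, and the call between the day 6 groups was lost (adjusted p = 0.084). HIF1A was bright throughout, at 16562 ± 822 on Dox-labelled and 17991 ± 838 on RA-labelled arrays, 14328 ± 1094 at d0 with Dox and 13931 ± 521 at d0. It rose by 0.37 on RA-labelled arrays over d0, and by 0.21 on Dox-labelled ones over d0 with Dox, a call lost without 10 of the 12 arrays in turn (adjusted p up to 0.159).

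Whether day 6 moved a member differently in the 2 arms was tested as the day 6 against d0 effect on Dox-labelled arrays minus that on RA-labelled arrays. This difference was called for 14 members, 7 higher and 7 lower, 20% of the members each way (4 higher without replicate 1 of d0), where 11.7% of all genes were called higher and 12.5% lower. It was largest for PDK1 (log2 difference 1.59 ± 0.12, adjusted p = 1.19e-05) and SLC2A1 (log2 difference -1.53 ± 0.17, adjusted p = 0.000196). These values rest on the day 6 labels. With each day 6 group set against the d0 group of the other arm (Dox-labelled against d0, minus RA-labelled against d0 with Dox), a setting chosen after seeing the data, PDK1 gave -0.09 (adjusted p = 0.667) and SLC2A1 -1.01 (adjusted p = 0.00286). Of the 14 members, 5 kept their direction and call in that setting (SLC2A1, SLC2A3, ENO1, NDRG1 and P4HA1), 5 kept the direction without the call, and PDK1, HK1, PFKFB4 and KDM3A turned sign. The shares of all genes that kept, lost or turned there are not given here, so these counts are not read against a background. As labelled, the difference for PKM, NDRG1 and PFKFB4 was -0.84, -0.95 and -1.04. RA is in only 1 arm, so the agents cannot be told apart in this difference.

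**Figure D4:**
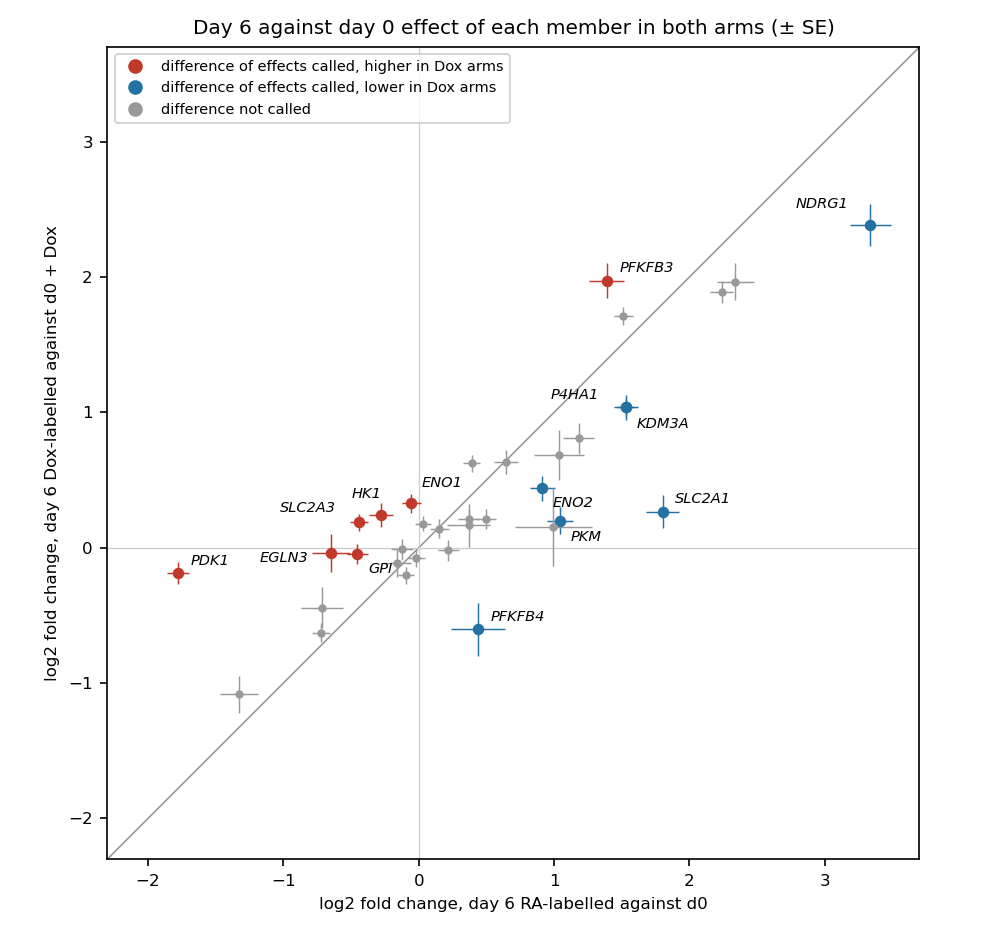
Log2 fold change of each measured member at day 6 in the RA-labelled arm (against d0, horizontal) and the Dox-labelled arm (against d0 with Dox, vertical), with SE bars and the line of equal effects. Named points are the 14 members whose difference between the arms as labelled was called, with PDK1 (1.59) and SLC2A1 (-1.53) farthest from the line.

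With these day 6 changes other measures of the arrays moved. The 3′ to 5′ ratio of ACTB was 2.33 ± 0.0580 on Dox-labelled and 2.59 ± 0.290 on RA-labelled arrays, 3.86 ± 0.0111 at d0 with Dox and 3.24 ± 0.139 at d0. All 9 measured stem cell markers fell at day 6 in both comparisons, PRDM14 averaging under 16 on Dox-labelled arrays. Their summed signal was 38458 to 39669 on Dox-labelled and 30818 to 32858 on RA-labelled arrays, 119288 to 123164 at d0 with Dox and 117649 to 131909 at d0. Such sums are led by the brightest probe sets. Gene by gene, 2 of the 9 were called higher and 5 lower on Dox-labelled than on RA-labelled arrays, with a median of -0.38. Of all genes 13.7% were called higher and 12.2% lower there. Of 10 mesoderm and mesenchyme markers 7 rose on Dox-labelled arrays over d0 with Dox, and 6 rose and 2 fell on RA-labelled arrays against d0, with MIXL1 averaging under 16 in both. Their sums were 70961 to 76161 on Dox-labelled and 64590 to 73608 on RA-labelled arrays, 24743 to 25466 at d0 with Dox and 22057 to 24720 at d0. The trophoblast and amnion list (6 genes) summed to 12617 to 13355 on Dox-labelled and 5044 to 5422 on RA-labelled arrays, 1727 to 1833 at d0 with Dox and 873 to 980 at d0, with its hormone subunit CGA averaging under 16 in every group. The endoderm and liver list (7 genes) reached at most 12149, on Dox-labelled arrays, 5730.2 on RA-labelled ones, 1016 at d0 with Dox and 840.4 at d0. Of 8 neural markers, whose sums were 25667 to 26362 on Dox-labelled and 25429 to 27931 on RA-labelled arrays, 14021 to 14105 at d0 with Dox and 13870 to 15408 at d0, 3 rose and 1 fell on Dox-labelled arrays and 3 rose and 3 fell on RA-labelled ones, and NEUROG2 averaged under 16 in every group. The 5 measured endothelial and blood markers summed to at most 763 on Dox-labelled and 615 on RA-labelled day 6 arrays, 1470.1 at d0 with Dox and 2177 at d0. On Dox-labelled arrays 0 of them rose and 1 fell, and on RA-labelled arrays 3 rose and 1 fell. VWF averaged under 16 on RA-labelled arrays and at d0, and PTPRC at d0. In bulk RNA a smaller share of cells of one type and less RNA per cell cannot be told apart, and the part of these markers and of RNA quality in the results was not tested.

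Other hypoxia genes, a list of 42 with 40 measured, also leaned upward at day 6. Like the members, these genes were chosen with earlier results of these data known, so the list is not independent support. On RA-labelled arrays 24 rose (60% of those measured), 7 fell (17.5%) and 9 were not called against d0, with a median of 0.57. All genes gave 25.3% higher and 25.2% lower there, with a median of -0.01. On Dox-labelled arrays 18 rose (45%), 6 fell (15%) and 16 were not called against d0 with Dox, with a median of 0.26. All genes gave 22.2% and 23.9% there, with a median of -0.03. LOX, which crosslinks collagen, averaged 19681 ± 1212 on Dox-labelled day 6 arrays and 312 ± 37.2 at d0 with Dox (5.91), and 14532 ± 1051 on RA-labelled arrays and 422 ± 19.4 at d0 (5.05). BHLHE40, a transcriptional repressor, rose by 4.78 and 4.36 in the same comparisons. HILPDA, a lipid droplet protein, fell in both (-0.98 and -1.12), as did the carbonic anhydrase CA12 (-1.10 and -0.66). AK4, a mitochondrial adenylate kinase, fell on RA-labelled arrays (-1.20), with -0.21 on Dox-labelled ones (adjusted p = 0.0673). CITED2 fell on Dox-labelled arrays (-1.37) and rose on RA-labelled ones (1.82).

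CITED2, which competes with HIF-1α for its coactivator and is induced by hypoxia, differed between the groups of each day, in opposite directions. It averaged 1060.2 ± 37.7 on Dox-labelled and 2962 ± 152 on RA-labelled day 6 arrays (-1.47), 2766 ± 132 at d0 with Dox and 832 ± 103 at d0 (1.72). Between the day 6 groups 7 of the 40 rose (17.5%) and 8 fell (20%), where 13.7% of all genes were called higher and 12.2% lower. STC2 (1.16) and ZNF395 (1.09) led upward and CITED2 and PPFIA4 (-0.93) downward. With Dox at d0, 9 rose (22.5%) and 6 fell (15%), against 7.75% and 5.16% of all genes. AK4 averaged 3553 ± 67.0 with Dox and 7989 ± 429.9 without (-1.16), STC2 fell by 0.77, and ARNT2, a partner of the HIF proteins, rose by 0.81, a call lost without replicate 1 or 3 of d0 with Dox (adjusted p up to 0.0599).

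Other genes of glucose and pyruvate use formed a list of 54, with 46 measured, and rises and falls were near in number at day 6. Against their d0 groups 12 rose and 10 fell on Dox-labelled day 6 arrays and 13 rose and 13 fell on RA-labelled ones, with medians of 0.01 and -0.08. On Dox-labelled arrays that is 26.1% up and 21.7% down, where all genes gave 22.2% and 23.9%, and on RA-labelled arrays 28.3% each way, where all genes gave 25.3% and 25.2%. GBE1, the branching enzyme of glycogen, averaged 6093 ± 144 on RA-labelled arrays and 1301 ± 95.7 at d0 (2.22) and rose by 1.35 on Dox-labelled ones. TIGAR, which degrades fructose-2,6-bisphosphate, rose by 1.37 on Dox-labelled and 1.51 on RA-labelled arrays. The transporter SLC2A10 rose by 0.26 on Dox-labelled and 1.56 on RA-labelled arrays. LDHD, which uses D-lactate, fell in both (-2.52 and -2.20), to means of 7.98 and 21.2, near or under the pseudocount of 16, so the size depends on it. PKLR, the pyruvate kinase of liver and red cells, fell on RA-labelled arrays (-1.38), with -0.58 on Dox-labelled ones (adjusted p = 0.116). The muscle mutase PGAM2 fell on Dox-labelled arrays (-1.24) and was higher on RA-labelled ones (0.78, adjusted p = 0.0058). Between the day 6 groups 7 rose (15.2%) and 13 fell (28.3%), where 13.7% of all genes were called higher and 12.2% lower. BPGM, which makes 2,3-bisphosphoglycerate (-1.05), and PGAM2 (-1.16) fell most, and PGM2 (0.78) and the transketolase TKT (0.63) rose most. With Dox at d0, 4 rose (8.7%) and 7 fell (15.2%), against 7.75% and 5.16% of all genes. Among them were the muscle enolase ENO3 (1.04) and the liver glycogen phosphorylase PYGL (-1.01). PGAM2 (0.86) and PKLR (-1.10) were also called, but lost without 2 and 4 of the 12 arrays in turn (adjusted p up to 0.0579 and 0.0886).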

How the data were processed

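Total RNA was hybridised to 12 Affymetrix human arrays, 3 per group. The deposited table gives the authors' linear intensity for 54675 probe sets. Its background correction, probe summary and scaling are not given in the sources used here, and no scanner files were used. Of the probe sets 41097 carried 1 gene symbol in the platform annotation, 1801 several and 11777 were not listed, and each of 19775 genes was represented by its brightest single-symbol probe set. Values were taken as log2(intensity + 16) without further scaling, so fold changes of dim genes are understated. limma 3.58.1 in R 4.3.3 fitted a mean per group over all 12 arrays (8 residual degrees of freedom) with empirical Bayes moderation, and adjusted p-values follow Benjamini and Hochberg over all genes. The threshold was 0.05. The fit was tested on simulated data. Errors of means are SD (n = 3), those of log2 fold changes SE. Members and gene lists were chosen with earlier results of these data known. Members were described by role, with values per array from an absolute log2 fold change of 0.5, and from each other list up to 2 rises and 2 falls a comparison were named. Alternatives changed the scaling, probe set choice, filter, variance model, arrays, replicate block and pseudocount (1 or 64). Crossing the arms in the difference between them was added after seeing the data. Promoter sequences are from RefSeq.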

Additional observations from a re-analysis of the deposited data

Results flagged for a closer look

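The day 6 against d0 effect in the Dox-labelled arm differed from that in the RA-labelled arm for 14 members, by limma's test of the difference itself with adjusted p-values over all genes. The difference was positive for PDK1 (1.59, adjusted p = 1.19e-05), SLC2A3 (0.63, adjusted p = 0.000785), EGLN3 (0.61, adjusted p = 0.0486), PFKFB3 (0.59, adjusted p = 0.042), HK1 (0.52, adjusted p = 0.0142), GPI (0.40, adjusted p = 0.0194) and ENO1 (0.38, adjusted p = 0.0202). It was negative for SLC2A1 (-1.53, adjusted p = 0.000196), PFKFB4 (-1.04, adjusted p = 0.022), NDRG1 (-0.95, adjusted p = 0.0102), PKM (-0.84, adjusted p = 0.00162), KDM3A (-0.49, adjusted p = 0.0189), P4HA1 (-0.49, adjusted p = 0.0028) and ENO2 (-0.47, adjusted p = 0.0251). HK1 and SLC2A3 were called in opposite directions in the arms. With the arms crossed (Dox-labelled day 6 against d0, minus RA-labelled day 6 against d0 with Dox), a setting chosen after seeing the data, HK1 (-0.66, adjusted p = 0.00546) was called the other way, and PDK1 (-0.09, adjusted p = 0.667), PFKFB4 (0.63, adjusted p = 0.162) and KDM3A (0.00592, adjusted p = 0.983) turned sign without a call. GPI, ENO2, PKM, PFKFB3 and EGLN3 lost the call there, and SLC2A1 (-1.01, adjusted p = 0.00286), SLC2A3 (0.91, adjusted p = 8.68e-05), NDRG1 (-0.77, adjusted p = 0.0359), P4HA1 (-0.39, adjusted p = 0.0118) and ENO1 (0.34, adjusted p = 0.0451) kept it. Leaving out single arrays of the 12 lost the call for EGLN3 (10 arrays), PFKFB3 (9), ENO2 (5), PFKFB4 (4) and ENO1 (2). With a gene's probe sets averaged, ENO1 and P4HA1 turned sign and KDM3A and PFKFB4 lost the call. EGLN3, PFKFB3, ENO1, ENO2 and GPI lost it when fitted over all probe sets, EGLN3 also with the replicate block and a pseudocount of 1, and ENO2 after median centring. RA was given in 1 arm alone. The labels of the day 6 groups go against NR6A1 at 4 of its 7 probe sets, 1 of them dim (averages of 7.94 and 13.2). The agents therefore cannot be told apart. Single arrays far from their group were not looked for, since groups held 3 arrays.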

How the results depend on the processing

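Of 87 called results of members, 48 kept their direction and their call under every alternative, 39 lost the call or reversed under at least 1, and 25 lost it without at least 1 array. In the 4 comparisons, members with several probe sets had 47 called results. Another probe set was called the same way in 26 of them and the other way in 1, and in 20 no other was called. Averaging all probe sets of a gene reversed ENO1 on Dox-labelled day 6 arrays against d0 with Dox (-0.25), and the differences between the arms of ENO1 (-0.18) and P4HA1 (0.0795), none of them called. With the arms crossed in the difference, an alternative chosen after seeing the data, HK1 (-0.66), PDK1 (-0.0899), PFKFB4 (0.63) and KDM3A (0.00592) reversed, and 1419 genes were called lower, against 2481 as labelled. Averaging probe sets also left 5 members lower between the day 6 groups and 967 genes higher with Dox at d0. With Dox at d0, 6 members were called higher among genes at or above the median level and with a trended robust variance, 0 on the 6 arrays alone, and 1 to 6 with an array left out. All genes called there numbered 1016 higher and 660 lower when fitted over all probe sets, and 891 and 631 on the 6 arrays alone, against 1532 and 1020. Members lower on Dox-labelled day 6 arrays against d0 with Dox numbered 2 after median centring, 3 over all probe sets and 2 to 5 with an array left out. Members higher on Dox-labelled than RA-labelled arrays numbered 5 to 10 with an array left out. Members with a higher difference between the arms numbered 3 over all probe sets and 4 to 7 with an array left out. Apart from these settings' own construction (fewer arrays, more tests, other probe sets), the cause was not tested. Same-numbered arrays showed little shared deviation (0 of 18 pairs over r = 0.1, from -0.00843 to 0.0483). The main fit had no pairing, and these values cannot show whether cultures of the same number were handled in parallel. With the replicate block 4 members were called higher and 3 lower with Dox at d0, 9 and 9 between the day 6 groups, 18 and 8 on RA-labelled and 15 and 5 on Dox-labelled arrays against d0, and 6 and 8 for the difference. Here and above, where the share of all genes called in a setting is not given, the counts of members are not read against a background. Calls on probe sets near the pseudocount are limited by signal over background: values under 16 made up 23.1% to 26.5% of each array.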
